A study of Mus musculus with 15 samples.

Results

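Epithelial cells hold to one another through adhesion proteins at their borders and carry keratin filaments inside, and 10 genes of this kind were followed here in sections of mouse embryos. The genes were listed by name, not by measured values, and all 10 had counts among the 30534 genes of the series. They fall into 3 roles. The adhesion members are Epcam, a cell surface adhesion glycoprotein, Cdh1, which encodes E-cadherin of the adherens junction, and the tight junction claudins Cldn6 and Cldn7. The simple keratins are Krt8, a type II keratin, and its type I partners Krt18 and Krt19, which together fill single-layered epithelia. The stratified keratins are Krt5 (type II) and its type I partner Krt14, found in the basal layer of the epidermis and other layered epithelia, and Krt15, another basal type I keratin. Keratin filaments form only from a type I and a type II protein, so a cell needs both kinds of partner. In the embryo, simple keratins mark gut, liver, lining and early surface epithelia, and the basal pair comes on in the surface ectoderm as it becomes layered.

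The series holds 11 transcript libraries and 4 antibody libraries of mouse embryo sections, made by barcoding tissue in place on a grid of square pixels. A library covers only the field under its grid, so its levels are not averages of a whole embryo. The labels give embryonic day 10 (E10) at pixel widths of 50 µm (n = 3), 25 µm (n = 1) and 10 µm (n = 2), day 11 (E11) at 25 µm (n = 2) and 10 µm (n = 2), and day 12 (E12) at 50 µm (n = 1). They state no strain, genotype or treatment, nor whether 2 sections came from separate embryos, so p-values measure only the spread between these libraries, which may be technical. A pixel can hold several cells of different types or a part of 1 cell.

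Tissue pixels numbered 829 to 2271 per library and held 1563489 to 11998765 counts. The E10 25 µm library was the shallowest, with a median of 843.5 counts per pixel, and the E10 50 µm libraries were the deepest, with medians of 8239 to 11332. Levels are counts per 1000000 counts in tissue pixels (CPM), and intervals on them cover counting error only. The sections did not sample the same organs. Summed heart muscle markers were at 68.9 CPM in E11 10 µm replicate 1 and at 4997 CPM in replicate 2, and summed liver markers at 59.1 and 3817 CPM.

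The members sit on 4 chromosomes of the GRCm38 build, as protein-coding genes of GENCODE M21. Krt8 (chr15:101996698-102004482) and Krt18 (chr15:102028180-102032027) are nearest coding neighbours, 23698 bases apart on opposite strands. Krt5 (chr15:101707070-101712898) lies in the same type II cluster. Krt15 (chr11:100131758-100135928) and Krt19 (chr11:100140810-100148665) are neighbours 4882 bases apart, near Krt14 (chr11:100203162-100207548). Epcam lies at chr17:87635979-87651129 and Cdh1 at chr8:106603351-106670246. Cldn6 (chr17:23679249-23682446) lies 138 bases from Cldn9, and Cldn7 (chr11:69964779-69967885) lies 337 bases from Elp5. Krt8 overlaps a long noncoding RNA gene on the other strand and Krt5 overlaps a miRNA gene on the other strand, and strand use is not stated. The pseudogene Krt8-ps was counted in a column of its own. Keratins of 1 type resemble each other, so reads could be split among them where the counting, which is not given in the sources used here, allowed it.

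The stretches before the start sites of Epcam, Krt18 and Krt5 are shown as 1 example of each role. RefSeq (GRCm38.p6) start sites were matched for 7 of the 10 members: Epcam, Krt8, Krt18, Krt5, Krt14, Cldn6 and Cldn7. Capitals mark the E-box CACCTG or its reverse complement CAGGTG, the element that Snail and Zeb repressors of epithelial genes are known to bind. The Krt18 stretch is limited to the bases outside the annotated gene and so ends 36 bases before the RefSeq start site. The stretches are chr17:87635729-87635978 (plus strand) for Epcam, chr15:102027966-102028179 (plus strand) for Krt18 and chr15:101712906-101713155 (minus strand) for Krt5.
Epcam: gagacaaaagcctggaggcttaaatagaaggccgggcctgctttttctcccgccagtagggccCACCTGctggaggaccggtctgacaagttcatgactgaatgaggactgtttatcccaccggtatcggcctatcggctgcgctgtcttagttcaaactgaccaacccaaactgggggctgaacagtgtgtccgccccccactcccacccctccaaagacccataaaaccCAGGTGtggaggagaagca
Krt18: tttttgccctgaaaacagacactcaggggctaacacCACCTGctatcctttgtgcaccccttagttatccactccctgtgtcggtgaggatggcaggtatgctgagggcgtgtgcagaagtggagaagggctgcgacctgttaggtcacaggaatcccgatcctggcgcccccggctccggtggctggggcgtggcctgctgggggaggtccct
Krt5: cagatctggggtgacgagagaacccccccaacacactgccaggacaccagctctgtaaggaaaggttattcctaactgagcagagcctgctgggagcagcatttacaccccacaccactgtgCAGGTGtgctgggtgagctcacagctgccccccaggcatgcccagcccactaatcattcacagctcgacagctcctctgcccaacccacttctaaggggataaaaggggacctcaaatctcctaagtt
Within 250 bases before a start site, this E-box was on either strand in 6 of the 8 windows of the 7 matched members, against 17.2% of 32851 windows of 27025 genes. Epcam held it at 187 and 19 bases before the start, Krt18 at 214 and Krt5 at 128. Krt8, Cldn6 and the second start site of Cldn7 held it at places that lie within the annotated gene. Krt14, whose window lies wholly within its gene, and the first start site of Cldn7 did not hold it. Of 4 other elements searched in the same windows on both strands, TATAAA and CCAAT were in none of the 8 windows, against 12.4% and 33.8% of the 32851 windows. GGGCGG was in 3 of the 8 windows, against 32.7%, and GCCNNNGGC in 1, against 13.7%. These matches describe letters, not binding.

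Divided by exon length, Krt18 ranked first in every section, and by CPM it did not. By CPM, Epcam was highest in E10 50 µm replicates 1 and 2 (22.2 against 15.5 and 15.7 against 15.0 for Krt18). Krt8 was highest by CPM in E11 25 µm replicates 1 and 2 and at E12 (99.3 against 85.1, 40.8 against 35.6 and 34.6 against 28.2). The counting is not given, so whether counts scale with exon length is not known. Per kb of exon, Krt18 ranked first among the 10 members in all 11 libraries, and Krt8 ranked 2nd in 9 and 3rd in 2. Their relative Krt19 ranked 5th to 7th at E10, 3rd to 6th at E11 and 9th at E12. At E12 the levels were 19.6 CPM per kb for Krt18, 17.7 for Krt8, 12.5 for Krt14 and 9.67 for Epcam, with Cdh1 last at 2.79. Epcam ranked 2nd to 5th across libraries. Krt5 ranked 9th or 10th in 8 of the 9 libraries where it had counts and 6th at E12.

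**Figure D1:**
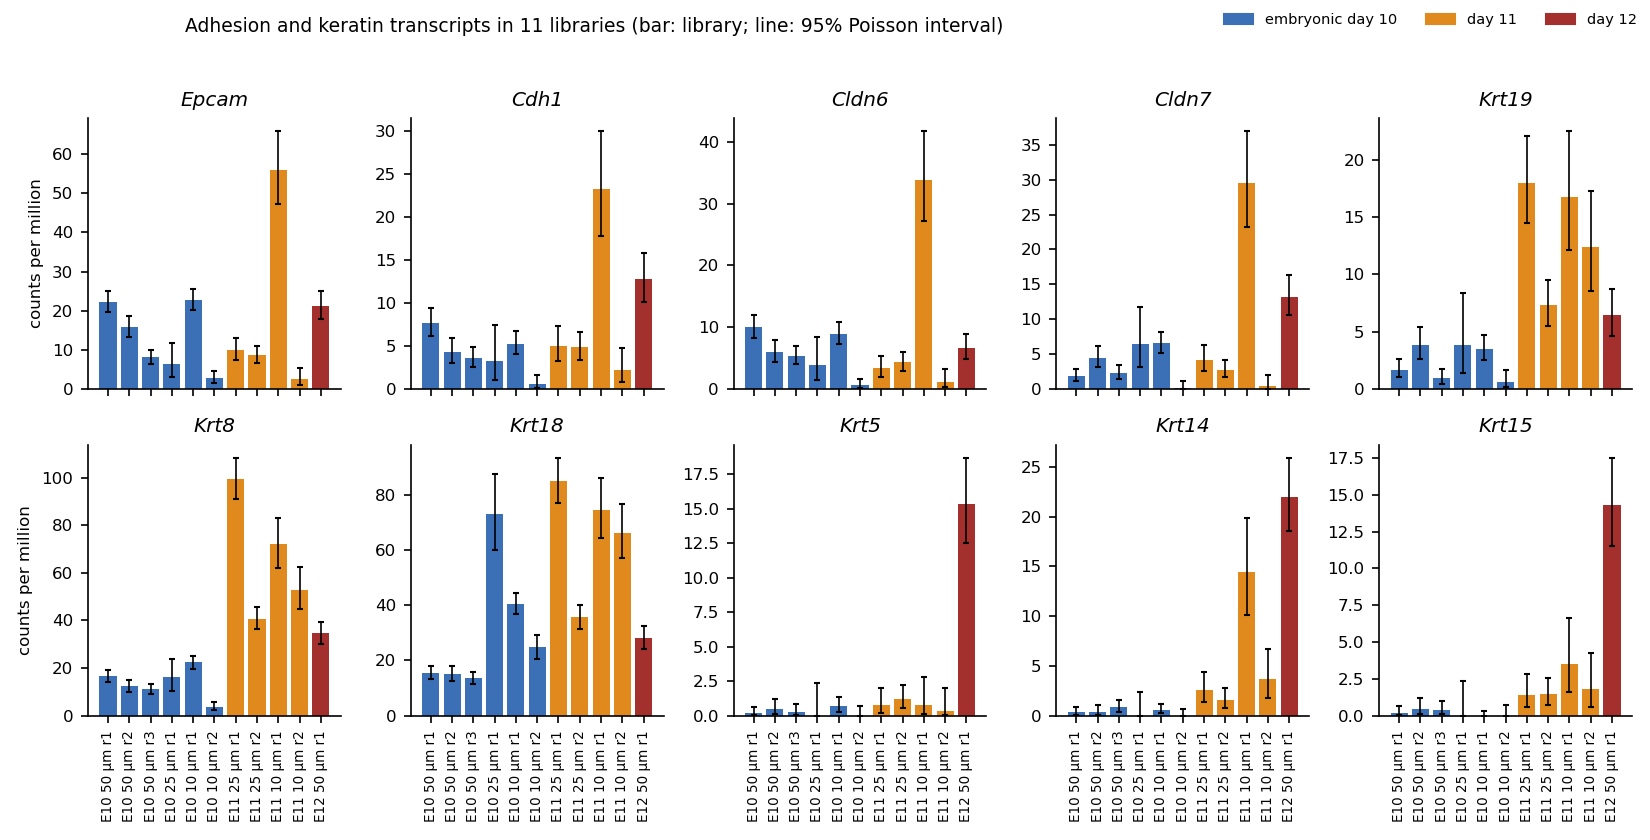
Level of each of the 10 genes in each of the 11 transcript libraries, in CPM on a linear axis from 0, with 95% Poisson intervals. The 3 stratified keratins in the lower right are near 0 at E10 and reach 14.3 to 22 CPM at E12, and the adhesion genes peak in E11 10 µm replicate 1.

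The stratified keratins were close to the limit of counting at E10 and were the only members called in the main stage tests, Krt5 at E12 alone. At E10, Krt5, Krt14 and Krt15 had 9, 16 and 10 counts in all 3 libraries at 50 µm together. At E12 they had 100, 143 and 93 counts in 1 library. In E12 against E10 at 50 µm, 3 of the 10 members passed the test and all 3 rose (edgeR quasi-likelihood test, Benjamini-Hochberg adjusted p under 0.05), where 2.14% of 18233 genes were called and 1.93% were called higher.

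Krt5 was at 0.176, 0.477 and 0.282 CPM in the E10 50 µm libraries and at 15.4 CPM at E12. It rose by 5.54 on the log2 scale (SE 0.83, adjusted p = 0.00502). Its type I partner Krt14 was at 0.352, 0.358 and 0.846 CPM at E10 and at 22 CPM at E12, a log2 change of 5.31 (SE 0.81, adjusted p = 0.00533). Krt15 was at 0.176, 0.477 and 0.376 CPM at E10 and at 14.3 CPM at E12, a log2 change of 5.30 (SE 0.70, adjusted p = 0.00283). Every E10 50 µm library lay below the E12 library for all 3 genes, and also for Cdh1, Krt8, Krt18, Krt19 and Cldn7. With 1 library at E12 such a split comes easily, and the share of all genes split in this way was not counted. Pooled over libraries, the ratios were 51.9 for Krt5 (95% counting interval 26.3 to 117), 41.8 for Krt14 (24.9 to 75.0) and 43.5 for Krt15 (22.6 to 93.6). E12 is 1 library, so its spread was taken from the other groups, and in bulk or pixel sums more cells of a type cannot be told apart from more RNA per cell.

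Between E10 and E11, averaging the 10 µm and the 25 µm contrasts, 2 of 10 members were called, Krt14 and Krt15, both higher. The background was 3.6% of genes called and 1.93% called higher. Krt15 had 0 counts in all 3 E10 libraries at these widths and 9, 5, 7 and 11 counts in E11 10 µm replicates 1 and 2 and 25 µm replicates 1 and 2. With a floor of 3 counts put in for the 0 over these E10 libraries, the pooled ratio was 11.1 (edgeR adjusted p = 0.0205). That ratio leaves out counting error and is not a strict lower bound. Krt15 did have counts in the E10 50 µm libraries, at a pooled 0.329 CPM, where E11 was at a pooled 1.77 CPM. At the 10 and 25 µm widths, Krt14 had 7 counts at E10, all in 10 µm replicate 1, and 37, 10, 13 and 12 counts at E11. Its pooled ratio was 10.7 (95% counting interval 4.96 to 27.7), and the fitted log2 change was 5.71 (SE 1.38, adjusted p = 0.0414). Krt5 had 8 counts at E10 and 16 at E11, a pooled ratio of 2.09 with an interval of 0.844 to 5.64 (adjusted p = 0.348). Krt5 was detected in all 4 E11 libraries, at 0.365 to 1.17 CPM, and whether its change differed from those of Krt14 and Krt15 was not tested. Both calls were lost without E11 25 µm replicate 1 (Krt14 adjusted p = 0.134, Krt15 0.0648), at 25 µm alone (0.455% of genes called) and when only the compared groups were fitted. The Krt14 call was also lost without any 1 of the 3 E10 50 µm libraries and without E10 10 µm replicate 2 (edgeR adjusted p = 0.0508 to 0.0572).

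Of the simple keratins, Krt8 and Krt19 were higher in every E11 library than in every E10 library of the same widths without passing the test. The share of all genes split in this way was not counted. Krt8 was at 22.3 and 3.59 CPM in E10 10 µm and 16.0 in E10 25 µm, against 72.0 and 52.9 in E11 10 µm and 99.3 and 40.8 in E11 25 µm. The log2 difference was 2.28 (SE 0.61, adjusted p = 0.0706). Krt19 was at 3.50, 0.566 and 3.84 CPM at E10 and at 16.7, 12.4, 17.96 and 7.29 CPM at E11, a log2 difference of 2.32 (SE 0.71, adjusted p = 0.0890). Both were called by DESeq2, with no filter on low counts, and without E10 10 µm replicate 1. Krt8 was also called without E10 10 µm replicate 2 (edgeR adjusted p = 0.0280) and without E11 25 µm replicate 2 (0.0436). Krt18, the filament partner of Krt8, had a log2 difference of 0.52 (SE 0.32, adjusted p = 0.338), and its E10 and E11 levels overlapped.

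Krt8 and Krt18 were not counted in a fixed proportion. Krt18 made up 44.9% to 55.7% of their joint counts in 8 libraries. In E10 10 µm replicate 1 its share was 64.5% (95% Wilson interval 61.0 to 67.8), in E10 25 µm it was 82.0% (74.8 to 87.5) and in E10 10 µm replicate 2 it was 87.3% (81.1 to 91.7). Those are the 3 E10 libraries with pixels narrower than 50 µm. In E10 10 µm replicate 2, Krt18 had 131 counts and Krt8 19. Between E10 10 µm and 50 µm, Krt18 was at 40.5 and 24.7 CPM against 15.5, 15.0 and 13.5 CPM, a log2 difference of 1.17 (SE 0.35, adjusted p = 0.183).

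At E12, Krt8 was at 34.6 CPM against 13.3 ± 2.87 (SD, n = 3) at E10 50 µm, Krt18 at 28.2 against 14.7 ± 1.02, and Krt19 at 6.46 against 2.14 ± 1.49. None of the 3 passed (log2 differences 1.35, 0.90 and 1.54, adjusted p = 0.453, 0.376 and 0.455). Liver epithelium is a known site of Krt8 and Krt18, and summed liver markers were at 8.25 to 137 CPM in the E10 libraries, with 2 to 5 of the 8 at 0, and at 3638 CPM at E12, with none at 0. Without the 10% of pixels richest in liver genes in each library, Krt8 and Krt18 differed between E12 and E10 by 0.94 and 0.53 on the log2 scale, and the stratified calls were the same. With so few liver counts at E10, the pixels left out there need not be liver. The part of liver tissue in the Krt8 and Krt18 levels was not tested.

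The adhesion members varied widely between sections of 1 stage. Epcam was at 22.2, 15.7 and 8.09 CPM at E10 50 µm, 6.40 at E10 25 µm, and 22.7 and 2.64 at E10 10 µm. At E11 it was at 9.87 and 8.60 CPM at 25 µm and at 56.0 and 2.55 CPM at 10 µm, and at E12 it was at 21.2 CPM. The E11 10 µm pair thus spanned the highest and the lowest Epcam level of the series. Cdh1 (23.3 against 2.19 CPM), Cldn6 (33.8 against 1.09) and Cldn7 (29.6 against 0.365) split the same 2 sections in the same direction. Krt8 (72.0 against 52.9 CPM) and Krt18 (74.7 against 66.4) were within 1.5 times of each other there. The replicate 1 section held few heart and liver transcripts and the replicate 2 section many, as given above, and the part of this in the adhesion levels was not tested.

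No adhesion member passed in either stage comparison. For E11 against E10 the log2 differences were 0.94 for Epcam (SE 1.18, adjusted p = 0.672), 1.41 for Cdh1 (SE 0.89), 0.99 for Cldn6 (SE 1.17) and 0.66 for Cldn7 (SE 1.27). Without E11 10 µm replicate 1 those of Epcam, Cldn6 and Cldn7 turned negative, at -0.79, -0.97 and -1.96. For E12 against E10 they were 0.43 (SE 1.42, adjusted p = 0.935) for Epcam, 1.26 for Cdh1 (SE 1.00), 2.17 for Cldn7 (SE 1.52) and -0.14 for Cldn6 (SE 1.45). Cldn7 was at 1.85, 4.41 and 2.26 CPM in the E10 50 µm libraries and at 13.2 CPM at E12, and was called only when the compared groups alone were fitted, where Krt8 was called too.

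Over all 10 members the median log2 difference was 1.84 for E11 against E10, also with Krt15 at its bound, where all genes tested had 0.050. It was 1.44 for E12 against E10, where all genes had -0.044. By pixel width, 0 of 10 members were called by edgeR between 10 and 50 µm at E10, where 0.11% of all genes were called. There 2 members had an unadjusted p under 0.05, as did 1978 of all 18233 genes. Between 10 and 25 µm at E11, 0 of 10 were called, where 2.07% of all genes were called. There 1 member had an unadjusted p under 0.05, as did 2094 of all genes. DESeq2 called none in either. The E10 50 µm libraries serve both the E12 and the E10 width comparison.

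Of the other epithelial gene lists, few members passed the test with stage. Over all 18233 genes, 3.6% were called at E11 and 2.14% at E12, so a short list with none called is near that share. Among 9 adherens junction and desmosome genes, Cdh3, the P-cadherin gene, was called higher at E11, at 19.8 against 5.19 CPM (log2 change 1.92, SE 0.46, adjusted p = 0.0406). None of the 9 was called at E12. The median log2 difference of these 9 was 1.61 at E11, with 8 above 0 and 4 at an unadjusted p under 0.05, and 1.12 at E12. Over all 18233 genes at E11, 9622 were above 0 and 4217 had an unadjusted p under 0.05. None of 12 tested tight junction genes was called at either stage (median log2 difference 0.12 and 0.057). Of 2 tested other stratified keratins, Krt17, a type I keratin of early epidermis and appendages, was called at E12 with 4.46 against 0.0881 CPM (log2 change 5.26, SE 1.21, adjusted p = 0.0483). None of 10 epithelial transcription and splicing factors, 12 epithelial surface genes, 7 mesothelial genes or 10 surface ectoderm genes was called at either stage. Their median log2 differences at E11 and E12 were 0.93 and 1.23 for the factors, 1.02 and 0.75 for the surface genes, 2.56 and 1.39 for the mesothelial genes and 0.30 and 0.59 for the surface ectoderm genes. Of 12 gut and lung endoderm genes, Nkx2-1, a lung, thyroid and forebrain factor, was lower at E11 (0.520 against 10.9 CPM, adjusted p = 0.0291) and Foxa3, a liver and gut factor, was higher at E12 (9.08 CPM against no counts in the E10 50 µm libraries, adjusted p = 0.0274). Of 13 mesenchymal genes, 3 rose at E12: Col1a1, Col1a2 and Snai2, a Snail-family repressor of Cdh1. Snai2 was at 48.8 against 7.97 CPM (log2 change 2.56, SE 0.53, adjusted p = 0.0286). Among 9 kidney duct genes, Lhx1 was lower at 10 than at 50 µm at E10 (edgeR adjusted p = 0.0480), where 0.11% of all genes were called.

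Keratin counts were mostly simple at E10 and E11 and nearly even at E12, as described here with no test. Simple keratin counts (Krt8, Krt18 and Krt19) exceeded stratified counts (Krt5, Krt14 and Krt15) 47.8, 23.7 and 16.9 times in the E10 50 µm libraries. In E10 10 µm replicate 1 the ratio was 53.1. E10 25 µm and E10 10 µm replicate 2 had no stratified count against 145 and 153 simple counts. With a floor of 3 counts put in for 0, the ratios were 48.3 and 51.0. At E11 the ratio was 42.7 and 20.1 at 25 µm and 8.75 and 22.6 at 10 µm. At E12 it was 1.34, with 450 simple and 336 stratified counts, and the stratified share was 42.7% (95% Wilson interval 39.3 to 46.2). The next highest share was 10.3% in E11 10 µm replicate 1 (7.82 to 13.3), and in the other 9 libraries it was 0% to 5.58%.

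**Figure D2:**
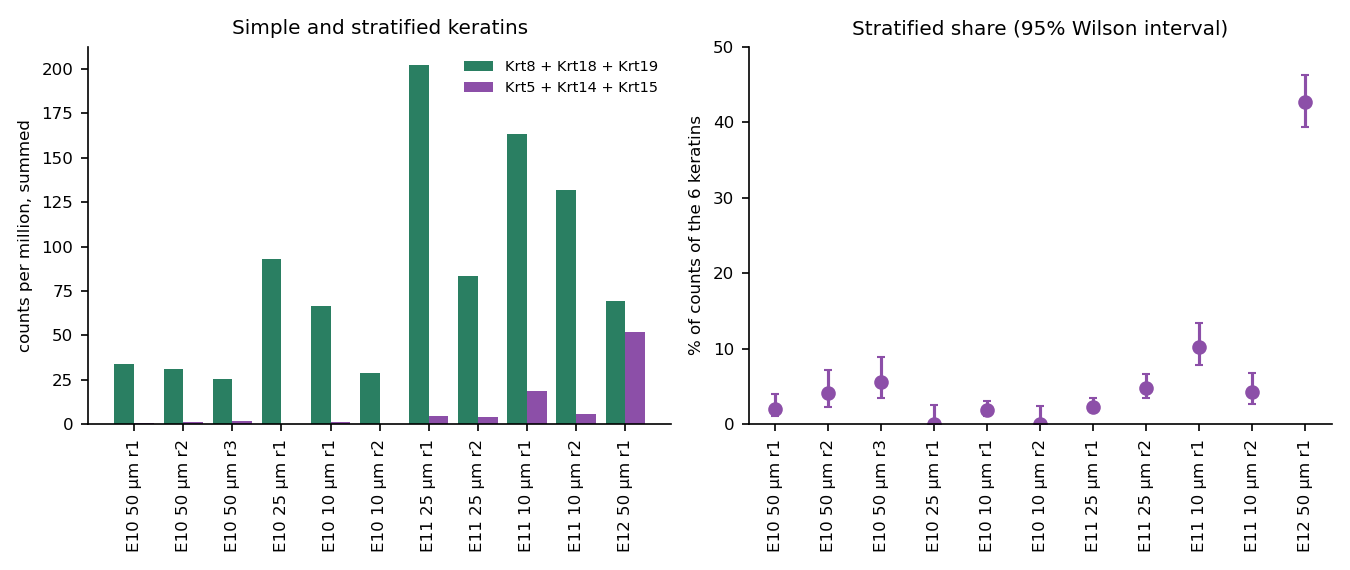
Left, summed simple and stratified keratin levels per library in CPM. Right, the stratified share of the counts of the 6 keratins in percent with 95% Wilson intervals, which stands at 42.7% at E12 and at or below 10.3% in the other libraries.

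At E12 the stratified pair Krt5 and Krt14 was higher in edge pixels and the simple pair Krt8 and Krt18 in the other tissue pixels, called inside here. A tissue pixel counted as edge when at least 1 of its 8 neighbours on the grid was not a tissue pixel. That was so for 24.8% of E12 pixels holding 18.4% of all counts. Pixels beside gaps within the section count as edge too, and the outer rim was not marked apart. Krt5 had 70 of its 100 counts there, at 58.6 CPM (95% Poisson interval 45.7 to 74.1) against 5.65 CPM (3.81 to 8.07) inside, a ratio of 10.4. Krt14 had 93 of 143 counts there, at 77.9 CPM (62.9 to 95.4) against 9.42 (6.99 to 12.4), a ratio of 8.26. Krt15 had 26 of 93, with 21.8 CPM at the edge and 12.6 inside, and their intervals overlapped. Krt8 and Krt18 went the other way, with 20.9 against 37.7 CPM and 16.7 against 30.7 CPM, ratios of 0.56 and 0.55 and intervals that did not overlap. Krt19 and Cdh1 had overlapping intervals at ratios of 2.47 and 1.92, as did Epcam, Cldn6 and Cldn7 at 1.23, 1.18 and 0.65. These are values of 1 section, with counting error only.

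The lower edge level of Krt8 and Krt18 was seen in the E12 section only with intervals that did not overlap. In 5 other libraries the edge was higher with intervals that did not overlap, for both genes in E10 50 µm replicate 3, E10 10 µm replicate 1 and E11 25 µm replicate 2, for Krt8 in E10 25 µm, and for Krt18 in E11 25 µm replicate 1. In E11 25 µm replicate 2, Krt8 was at 58.3 CPM (47.8 to 70.4) at the edge against 35.2 (30.5 to 40.3) inside, and Krt18 at 52.4 against 30.2. Krt18 in E10 10 µm replicate 1 was at 68.5 CPM at the edge against 30.9 inside.

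The stratified keratins had few counts at E11 25 µm. Krt14 had 7 of 13 and 10 of 12 counts at the edge in replicates 1 and 2, and Krt5 had 3 of 4 and 7 of 9, where edge pixels held 15.0% and 24.1% of all counts. At E11 10 µm, whose fields are the smallest, Krt14 had 6 of 37 and 3 of 10 counts at the edge, where edge pixels held 21.6% and 16.6%.

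**Figure D3:**
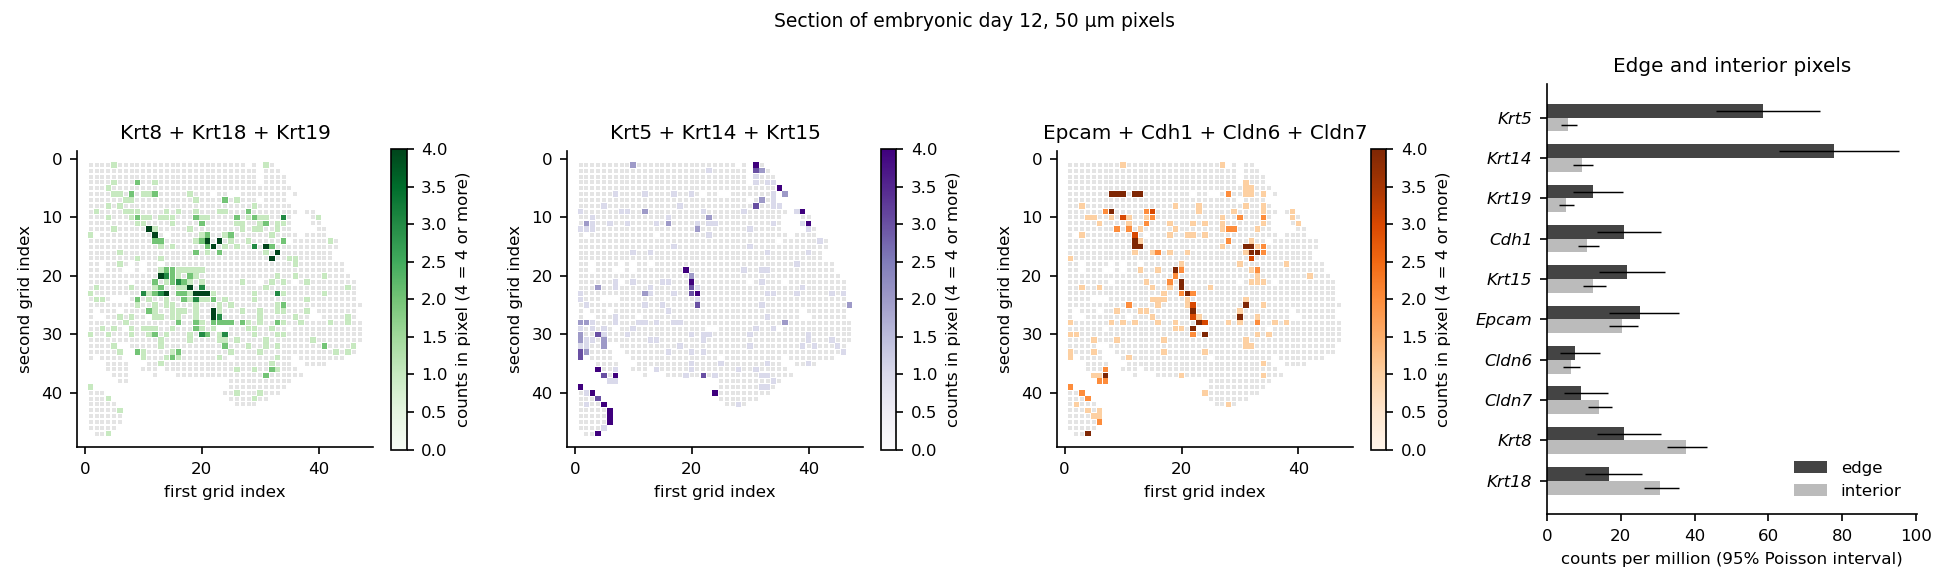
Pixels of the E12 section with counts of the simple keratins, the stratified keratins and the adhesion genes (colour, counts per pixel, with 4 standing for 4 or more; grey, tissue pixels without a count), and levels in edge and interior pixels with 95% Poisson intervals. Krt5 and Krt14 are higher at the edge (58.6 and 77.9 CPM) and Krt8 and Krt18 inside (37.7 and 30.7 CPM).

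Genes of 1 filament pair shared pixels beyond the expected number. To allow for deep pixels, the number of pixels holding both genes was set against the number that independent genes with the same pixel depths would give, where at least 5 were expected. Over all libraries, Krt5 and Krt14 shared 31 pixels where 5.76 were expected, 5.38 times as many (95% counting interval 3.66 to 7.64), with 27 against 5.49 in the E12 section. Pearson's r of their levels across its 1535 pixels was 0.38. Krt8 and Krt18 shared 413 pixels where 211 were expected, a ratio of 1.96 (1.77 to 2.16). It was above 1 in all 9 libraries with enough pixels, from 1.36 in E11 10 µm replicate 2 to 2.29 in E11 25 µm replicate 2. Krt8 and Krt19 shared 2.13 times the expected number (1.72 to 2.61). Krt8 shared pixels to a like degree with genes that are no keratins. Its ratio was 1.97 with Epcam, 2.03 with Cdh1, 2.22 with Cldn6 and 2.30 with Cldn7.

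Most keratins of different classes did not share pixels in excess. At E12, Krt8 and Krt14 shared 9 pixels where 13.3 were expected, a ratio of 0.68 (0.31 to 1.28), Krt18 and Krt14 shared 7 where 11.1 were expected (0.25 to 1.30), and Krt8 and Krt5 shared 6 where 10.4 were expected (0.21 to 1.26). These intervals hold 1, so a deficit was not detectable at this depth. Over all libraries, Krt19 and Krt14 shared 11 pixels where 5.43 were expected, a ratio of 2.03 (1.01 to 3.63). At E12, Krt15 shared 20 pixels with Krt8 where 10.1 were expected, a ratio of 1.99 (1.21 to 3.07), and 10 with Krt18 where 8.38 were expected (0.572 to 2.20). At E11, Krt15 and Krt8 shared none where 4.88 were expected, and over all libraries their ratio was 1.41 (0.896 to 2.12). Krt15 and Krt14 shared 11 pixels at E12 where 5.33 were expected (1.03 to 3.69), and over all libraries their ratio was 1.89 (0.942 to 3.38). As classes, 184 E12 pixels held a stratified keratin, 296 a simple one and 44 both, where 46.5 were expected.

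Taken as a class, the adhesion members shared pixels with both keratin classes at E12, but not every pair of genes did so. Epcam and Cldn7 were found together in 3.32 times the expected number of pixels (2.69 to 4.04), Cdh1 and Cldn7 3.10 times, Cldn6 and Cldn7 3.09 times, Cdh1 and Cldn6 2.93 times, Epcam and Cldn6 2.31 times and Epcam and Cdh1 2.30 times. Epcam and Krt8 shared 1.97 times the expected number (1.71 to 2.26). At E12, 79 pixels held an adhesion member and a simple keratin where 47.2 were expected, and 51 held an adhesion member and a stratified keratin where 29.8 were expected.

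**Figure D4:**
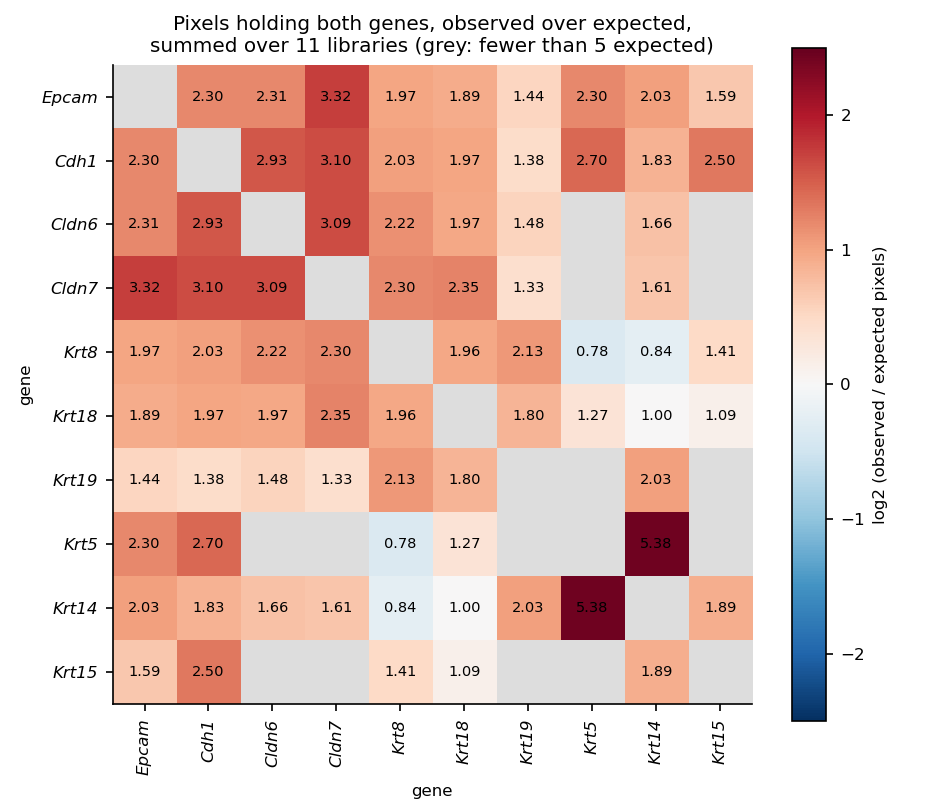
Observed over expected number of pixels holding both genes of a pair, summed over the 11 libraries (colour on a log2 scale, numbers are the ratios; grey, fewer than 5 expected or the gene itself). Krt5 with Krt14 stands at 5.38, the adhesion genes with one another at 2.30 to 3.32, and Krt8 with Krt14 at 0.84.

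Many simple keratin pixels held no adhesion count. Their share was 50.0% to 73.3% in the E10 50 µm libraries, E10 10 µm replicate 1, E11 10 µm replicate 1 and E12. It was 85.7% to 98.9% in the other 5 libraries. Adhesion counts were sparse in all tissue pixels. In E10 50 µm replicate 1, 239 of 859 tissue pixels held one, and 105 of 210 simple keratin pixels did, where 73.6 were expected. In E11 10 µm replicate 2, 16 of 1930 tissue pixels held one, and 3 of 262 simple keratin pixels did, where 3.10 were expected. Depth per pixel and organ content differed between these libraries, and their part in this share was not tested.

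In the sections with most liver transcripts, liver markers were higher in pixels with Krt8 or Krt18 than in pixels without. The 10% of pixels richest in liver markers were also deeper than the rest. Their median totals were 3607.5 against 2463.5 and 4789.5 against 4268.5 in E11 25 µm replicates 1 and 2. They were 5266 against 3387 at E12 and 2089 against 1040 in E11 10 µm replicate 2. A deep pixel is more likely to hold a count of any gene, and the part of depth in these ratios was not tested. The summed liver markers were 3.35 and 5.25 times higher in pixels with Krt8 than in those without it in E11 25 µm replicates 1 and 2, 3.899 times higher at E12 and 2.23 times higher in E11 10 µm replicate 2. For Krt18 the ratios were 4.91, 4.63, 2.87 and 1.67. The ratio for Krt8 was also 1.78 to 2.23 in the E10 50 µm libraries. For Krt19 they were 0.302, 0.339, 0.699 and 1.27 in those 4 sections. Krt19 pixels held 9.40 and 7.26 times as much of Krt7, Krt20 and Krt23 together in E11 25 µm replicates 1 and 2, on 14 and 10 counts, and 2.19 times as much at E12, on 4. Pixels with Epcam held 4.94, 10.1 and 4.64 times as much of the stratified epithelium markers (Krt5, Krt14, Krt15, Trp63 and Perp) in E11 25 µm replicates 1 and 2 and at E12. A list of 13 mesenchymal genes, which includes Zeb1, Zeb2, Snai1 and Snai2, was at 0.616 to 0.930 times in pixels with Epcam in all 8 libraries with enough pixels. A second list of 6 mesenchyme markers was at 0.588 to 1.09 times, above 1 in E10 50 µm replicates 1 and 3. Pixels with Krt8 held 1.18 (E11 10 µm replicate 2) to 8.07 (E10 25 µm) times as much of the epithelium markers other than Krt8 in the 10 libraries with enough pixels.

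Neighbouring pixels tended to resemble each other in these genes. Moran's I, which is near 0 for a random layout, was computed for genes in at least 5% of the pixels of a library. Krt8 reached 0.35 in E11 25 µm replicate 1, above 99.2% of 7146 genes, and Epcam 0.27 in E10 10 µm replicate 1, above 99.5% of 9695 genes. Krt14 at E12 had 0.16, above 95.96% of 9522 genes. Krt18 was below Krt8 in 8 of 9 libraries, at 0.10 against 0.22 in E10 50 µm replicate 1 and 0.052 against 0.15 at E12. In E11 10 µm replicate 2 both were low, at 0.049 for Krt8 and 0.035 for Krt18. Values were compared only within a library.

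Some genes outside the list had a similar layout. The 5 with the highest mean Pearson r across pixels with the sum of Epcam, Cdh1, Krt8, Krt18, Cldn6 and Cldn7, over 9 libraries and 9610 genes, were Frem2 (r = 0.17), a basement membrane protein of developing epithelia, Wfdc2 (0.15), Dsg2, a desmosomal cadherin (0.15), Pdgfa (0.14) and Dlk1 (0.14). These are weak correlations in sparse counts, and for Wfdc2, Dsg2 and Pdgfa the lowest library was just below 0. With the sum of Krt5, Krt14 and Krt15 in the E12 section, the 1 library with enough counts, the 5 highest of 14212 genes were Cxcl14 (r = 0.34), Perp, a desmosome protein of layered epithelia (0.32), Sfn (0.27), Tfap2b (0.26) and Dsp, the desmoplakin gene (0.24).

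EpCAM protein could be set beside its transcript in 4 E10 sections, in which 22 antibodies carrying DNA tags were counted in the same pixels. The EpCAM tag made up 3.67% of all tags in E10 50 µm replicate 1, 3.31% in E10 50 µm replicate 3, 3.40% in E10 25 µm and 2.85% in E10 10 µm replicate 2. It ranked 11th to 15th of the 22 tags. Its share of a pixel's tags spread least widely in the 50 µm and 10 µm sections, where the 95th percentile was 2.22 to 2.71 times the 5th, and most in the 25 µm section, at 6.07 times.

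The pixels richest in EpCAM tag were rich in epithelial transcripts in 3 of the 4 sections. In E10 50 µm replicate 1, Epcam was at 100.6 CPM (95% Poisson interval 81.7 to 122) in the 10% of pixels with the highest tag share and at 14.8 CPM (12.5 to 17.3) in the rest, a ratio of 6.81. In E10 50 µm replicate 3 it was at 34.5 CPM (22.8 to 50.3) against 5.99 (4.56 to 7.72), a ratio of 5.77. In E10 25 µm it was at 35.4 CPM (12.98 to 77.0) against 2.87 (0.78 to 7.35), on 10 counts in all. In E10 10 µm replicate 2 it was at 2.10 CPM (0.05 to 11.7) against 2.70 (1.44 to 4.61), on 14 counts, with intervals that overlapped.

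Other members were also high in the pixels richest in the tag. In E10 50 µm replicates 1 and 3 and E10 25 µm, the ratio of the top 10% to the rest was 5.22, 7.60 and 12.3 for Krt8, 5.58, 5.19 and 5.98 for Krt18, 4.74, 5.82 and 12.3 for Cdh1, and 9.57, 25.2 and 12.3 for Cldn7. The Cdh1 value in E10 25 µm rests on 3 and 2 counts with overlapping intervals. Krt19 was at 4.86, 3.15 and 1.64 times, on 6 to 19 counts per section. Krt14 and Krt15 had no count in the top pixels of E10 50 µm replicate 1, and 5 of 9 and 3 of 4 counts there in replicate 3. In E10 10 µm replicate 2 it was 1.11 for Krt18, on 131 counts. Neural progenitor markers were at 0.63, 0.66 and 0.63 times the rest in the same 3 sections and neuron markers at 0.69, 0.61 and 0.90 times. Mesenchyme markers were at 1.32, 1.55 and 0.93 times. With pixels in 10 groups by tag share, Epcam in E10 50 µm replicate 1 was at 101 CPM in the highest group and at 7.58 to 23.4 CPM in the other 9.

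Across pixels the correlation of Epcam transcript with its own tag was highest among the 22 tags in the same 3 sections, with Pearson's r of 0.23 in E10 50 µm replicate 1 (859 pixels), 0.30 in E10 50 µm replicate 3 (839 pixels) and 0.14 in E10 25 µm (1766 pixels). The next tag in E10 50 µm replicate 1 was NK-1.1, an immune receptor tag, at 0.21. In E10 10 µm replicate 2 r was -0.02 over 2271 pixels, 17th of the 22. In the same 3 sections, some other members correlated with the EpCAM tag more than Epcam did. In E10 50 µm replicate 1 this was Cldn6 (r = 0.28). In E10 50 µm replicate 3 these were Cldn7 (0.35) and Krt18 (0.34). In E10 25 µm these were Cldn6 (0.28), Krt18 (0.27) and Krt8 (0.22). The remaining members with counts were below Epcam there.

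**Figure D5:**
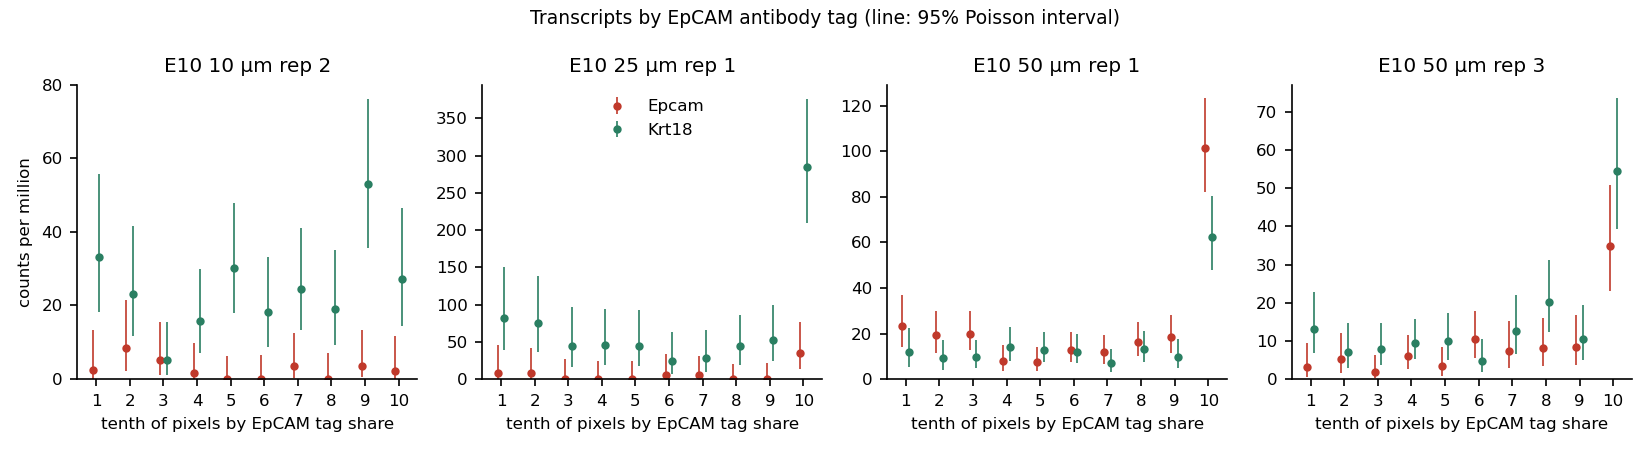
Level of Epcam and Krt18 transcripts in CPM, with 95% Poisson intervals, in 10 equal groups of tissue pixels ordered by the EpCAM tag's share of all tags, in 4 E10 sections (1, lowest share; 10, highest). Group 10 stands above the others in the 50 µm and 25 µm sections and not in the 10 µm section.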

How the data were processed

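Mouse embryo sections were frozen in OCT, barcoded on a grid and sequenced as Nextera XT libraries, per the labels' protocols. The deposited tables hold raw counts per pixel, of genes in 11 libraries and of 22 antibody tags in 4. The submitters' processing notes name CASAVA 1.8.2 and, for these mouse samples, the build GRCh38. The aligner, annotation, strand use, collapse of molecular identifiers and pixel filters are not given in the sources used here. A gene without a column in a file was taken as 0, which concerned Krt5, Krt14 and Krt15 in E10 libraries at 10 and 25 µm.

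Tissue pixels had at least 0.1 times the 95th percentile of pixel totals. Counts were summed over them and tested with edgeR 4.0.16 (TMM, filterByExpr, robust quasi-likelihood, 6 group means, 18233 genes, Benjamini-Hochberg, 0.05). DESeq2 1.42.0 was an alternative. Both the fit and the pixel-sharing ratio were tested on simulated data. Correlations and Moran's I used log2(count per 10000 + 1) and 4 neighbours. Annotation was GENCODE M21.

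The members, lists and tests were chosen with earlier results of these data known. Named genes were all 10 members, the called genes of each epithelial list (at most 4 per list and comparison) and the 5 genes most correlated with each member sum. The edge and liver-pixel values were added after the data were seen.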

Additional observations from a re-analysis of the deposited data

Results flagged for a closer look

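Pixels below the tissue minimum entered no comparison, yet some held a higher CPM of a member than the tissue did, with the lower 95% Poisson bound above the tissue level. At E12, 132 such pixels, 117 of them touching tissue, held 12 Krt14 counts (168 CPM against 22 in tissue) and 8 Krt5 counts (112 against 15.4). Of those, 11 and 7 counts lay in pixels that touch tissue. In E11 10 µm replicate 1, Krt14 was at 91.9 CPM there on 4 counts. In E11 25 µm replicate 2, Krt18 was at 87.4 CPM on 10 counts. In E10 50 µm replicate 3, Krt18 was at 66.2 CPM on 8 counts, and in replicate 1, Cdh1 and Krt8 were each at 50.6 CPM on 9 counts. In all, 7 of 110 gene and library pairs were picked out this way, and the cause was not tested. No group had enough libraries for a check of single outlying samples.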

How the results depend on the processing

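Members called for E11 against E10, 2 in the main test, were 4 with DESeq2 and with no filter, 0 with only the groups compared and at 25 µm alone, and 0 to 4 with 1 library left out (0 without E11 25 µm replicate 1, 1 without any 1 of the E10 50 µm libraries, 4 without E10 10 µm replicate 1). At 10 µm alone without E10 25 µm and E10 10 µm replicate 2, chosen after seeing the data, 1 member was called of 234 genes, and Krt5 was at -0.22. For E12 against E10, 3 members were called under every setting but no filter (4) and only the groups compared (5). For E10 10 against 50 µm, no filter called 1.

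All genes called for E11 against E10 were 656, with 1428 by DESeq2, 1988 with no filter, 281 with only the groups compared, 83 at 25 µm alone and 144 to 1465 with 1 library left out. For E12 against E10 they were 390, with 1328 with no filter, 1324 with only the groups compared and 98 to 969 with 1 library left out. For E10 10 against 50 µm they were 20, with 413 by DESeq2, 731 with no filter, 32 with only the groups compared and 0 to 164 with 1 library left out. For E11 10 against 25 µm they were 378, with 870 with no filter and 33 to 463 with 1 library left out. The causes were not tested.

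At 25 µm alone, E11 against E10 was -0.050 for Krt18 and -0.69 for Cldn7. With 1 library left out, E11 against E10 ranged from -0.79 to 2.10 for Epcam, -0.97 to 2.56 for Cldn6 and -1.96 to 2.74 for Cldn7, with the low end without E11 10 µm replicate 1 and the high end without E10 10 µm replicate 1. E12 against E10 ranged from -0.30 to 0.17 for Cldn6.

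The simple to stratified ratio at E12 was 1.68 with Krt8 and Krt18 against Krt5 and Krt14. With 2 or more counts as detected, the pixel-sharing ratio was 4.91 for Krt8 with Krt18 and 6.28 for Epcam with Krt8. For the top of the EpCAM tag, Epcam in E10 50 µm replicate 1 was 3.95 times the rest with the top 20%, and in E10 10 µm replicate 2 it was 0 with tag per transcript count.

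The number in the E11 titles is not said to mark a shared embryo or day, and same-numbered E11 libraries deviated together with r = 0.088 over 14389 genes. With it as a replicate block, 297 genes and 0 members were called between E11 widths. Depth limits the stratified keratins before E12, at 0 to 37 counts per library, and the adhesion members in some libraries, with 1 count of Cldn7 in E10 10 µm replicate 2.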
